A study of Mus musculus with 6 samples.

Results

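The tumour necrosis factor (TNF) superfamily is a set of membrane-bound and shed cytokines together with the cell-surface receptors that bind them. Its members were taken by gene symbol: every row named Tnfsf or Tnfrsf followed by a number, and Tnf, Lta, Ltb, Ltbr, Cd40, Cd40lg, Fas, Fasl, Cd27, Cd70, Ngfr and Eda2r. The rule found 42 genes of the 17714 in the expression table, 16 ligands and 26 receptors; Cd40lg was not analysed here. RNA of mouse heart cells labelled as lymphatic endothelial was sequenced in 6 libraries, all at day 3 and all labelled WT for genotype. The 3 sham libraries are the controls and the 3 MI libraries follow myocardial infarction; no other allele or agent is named, and neither the age nor the sex of the animals is given. The protocol text names both heart tissue and primary endothelial cells of the heart as the source, gives a serum-containing medium and describes no sorting step. Nothing in the labels says that the libraries of a group came from separate animals or cultures, and the p-values rest on a spread between libraries that may be technical.

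Most TNF-family ligands are made as trimers on the cell surface, and many are cut free by proteases. Receptors whose cytoplasmic tail carries a death domain can lead to caspase activation or, by way of adaptor proteins and ubiquitin chains, to the transcription factor NF-kappaB; receptors without one bind TRAF adaptor proteins directly and act mainly through NF-kappaB and MAP kinases; decoy receptors bind ligand without passing on a death signal. In the heart, TNF is known as an early inflammatory product of the injured muscle, made chiefly by macrophages, and the lymphotoxin, CD40 and RANK branches of the family are known for their part in lymphoid organs, immune-cell activation and bone.

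Depth followed the group, with 3206732 to 3591473 estimated counts in the sham libraries and 21154342 to 21689333 in the MI libraries, so the shallower sham libraries limit what can be detected, and MI cannot be told apart from any difference in library preparation between the groups. Levels are given as CPM, counts scaled to the size of each library with the trimmed mean of M-values method. All 8 markers of the labelled cell type, lymphatic endothelium, were detected in both groups. In MI 7 were lower and 1 higher, with a median log2 fold change of -2.52 (from -4.10 to 5.35). They summed to 517 to 532 CPM in sham and 275 to 286 CPM in MI. This sum takes in the 1 marker that rose, so it does not show how far the 7 others fell. Markers of several other cell types reached higher sums. The 15 macrophage and monocyte markers summed to 4801 to 5028 CPM in sham and 22238 to 26317 CPM in MI, with none at 0, and all 15 rose. The 12 pan-endothelial markers summed to 9045 to 9203 CPM in sham and 2062 to 2171 CPM in MI, and all 12 fell. Neutrophil markers summed to 46.4 to 56.4 CPM in sham and 749 to 925 CPM in MI, with Ngp at 0 in every sham library. T cell and NK cell markers summed to 21.8 to 24.0 CPM in sham and 25.3 to 26.5 CPM in MI, with Cd3g and Ncr1 at 0 in sham and Cd3e at 0 in MI, and B cell markers to 7.96 to 12.1 CPM in sham and 5.94 to 8.74 CPM in MI. Cardiomyocyte markers summed to 3008 to 3056 CPM in sham and 137 to 164 CPM in MI, mural cell markers to 3186 to 3221 CPM in sham and 871 to 873 CPM in MI and fibroblast markers to 1400.2 to 1416 CPM in sham and 2182 to 2226 CPM in MI, where 4 of the 8 were higher and 4 lower (median log2 fold change -0.28). The part of these cells in the changes of the TNF family was not tested, and in these bulk libraries fewer cells of a type and less RNA per cell cannot be told apart.

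Of the 42 members, 30 reached a group mean of 1 CPM in sham or in MI: 24 did so in sham, 29 in MI and 23 in both. The 6 that reached it in MI only were Ltb, Tnfsf4, Tnfsf8, Tnfsf15, Tnfrsf8 and Tnfrsf9, and the 1 that reached it in sham only was Tnfrsf17. Enough counts for the test across all genes were found for 31 members; 7 of these had reached 1 CPM in 1 group only. In MI 19 of the 31 were higher and 8 lower at an adjusted p under 0.05, and 4 did not pass (Tnfsf13b, Tnfrsf21, Ngfr and Ltbr). Among all 13370 genes tested 73.3% passed, 36.4% higher and 36.9% lower, against 87.1% of the tested members, 61.3% higher and 25.8% lower. Changes of at least 2-fold that passed were found for 18 members upward and 5 downward, 58.1% and 16.1% of those tested, beside 20.2% and 21.2% of all genes. All 3 MI libraries lay on the same side of all 3 sham libraries for 27 members (87.1%), and for 76.1% of all genes. The median log2 fold change of the tested members was 1.22, and that of all genes -0.015. Scaling to total counts in place of the trimmed mean shifted the median of all genes to -0.36 and turned the split of the members into 18 higher and 11 lower.

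The counts by role cover only the members that passed the filter on low counts, and over all genes tested 36.4% were higher and 36.9% lower. Of 11 tested ligands 9 were higher (81.8%), 1 (Tnfsf10) was lower (9.1%) and 1 did not pass. Their median log2 fold change was 2.50 (2.45 with the 3 ligands that had no count in sham set at their lower bounds). Of the 9 higher ligands, Ltb, Tnfsf4, Tnfsf8 and Tnfsf15 reached 1 CPM in MI only and so entered the test through the group where they are high; with MI thinned to the sham depth, Ltb, Tnfsf8 and Tnfsf15 were not tested. Of 20 tested receptors 10 were higher, 7 lower and 3 did not pass, with a median of 0.69. Of the 6 receptors with a death domain 4 were lower (66.7%) and 2 did not pass (median -0.27). Of those 4, Tnfrsf1a and Fas fell only 1.20-fold and 1.22-fold and lost their calls in several settings given below. Of the 11 tested receptors that bind TRAF proteins 8 were higher (72.7%) and 2 lower (18.2%), with a median of 1.60. Among these, Tnfrsf8 and Tnfrsf9 reached 1 CPM in MI only and Tnfrsf17 in sham only. Each thus entered the test through the group where it is high. With MI thinned to the sham depth, Tnfrsf9 and Tnfrsf17 were not tested. The decoy and orphan receptors gave 2 higher and 1 lower of 3 tested. These counts describe the groups; the difference between them was not tested.

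**Figure D1:**
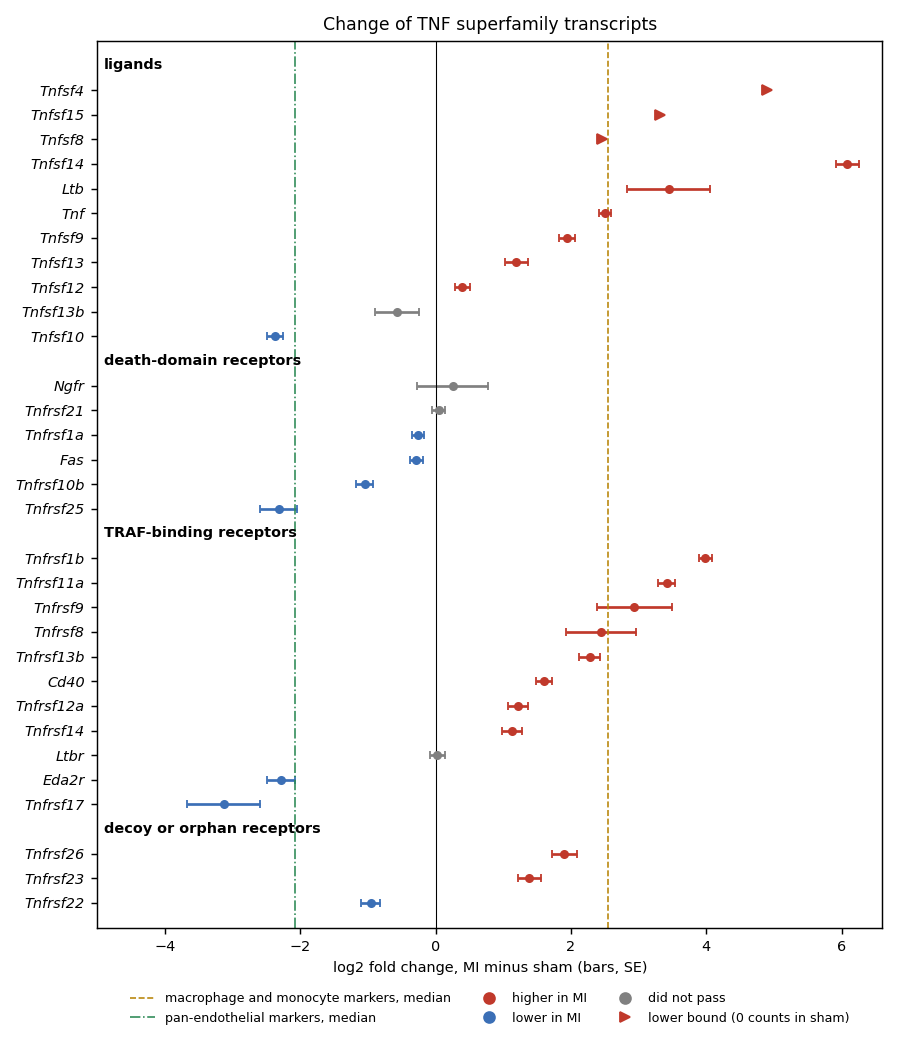
Log2 fold change of the 31 tested members, MI minus sham, with bars for the standard error, grouped by role; triangles are lower bounds for the 3 ligands with 0 counts in sham, and vertical lines give the median change of the macrophage and monocyte markers (2.55) and of the pan-endothelial markers (-2.08). Tnfsf4, Tnfsf15, Tnfsf14, Ltb, Tnfrsf1b, Tnfrsf11a and Tnfrsf9 lie to the right of the macrophage line, and Tnfsf10, Tnfrsf25, Eda2r and Tnfrsf17 to the left of the endothelial line.

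Promoter sequences of 33 of the 42 members were matched in RefSeq (GRCm38.p6) and searched, over the 250 bases before the annotated start and on both strands, for 3 motifs: GGG, any 5 bases, then CC (a loose kappaB-type motif); TGANTCA, where N is any base (an AP-1-type motif); and TTTC, any 2 bases, then TTTC (an interferon-response-type motif). Tnfsf4, Tnfsf9, Tnfsf12, Cd70, Tnfrsf10b, Cd40, Tnfrsf11b, Tnfrsf22 and Tnfrsf26 had no entry. The kappaB-type letters are common, being found in 45.8% of all 32817 promoters and in at least 1 promoter of 48.7% of 27025 genes, and were found in 23 members, including 12 of the 14 higher members with an entry and 4 of the 6 lower ones; members were counted by gene, and 4 (Tnfrsf9, Tnfrsf25, Tnfsf13b and Tnfrsf19) have more than 1 promoter entry. The AP-1-type letters were found in 6 members (4 of 14 higher, 1 of 6 lower) and in 6.75% of all promoters (7.82% of genes), and the interferon-type letters in 4 members and 2.97% of all promoters (3.46% of genes). A match describes letters only and shows no binding. The sequences of 4 members with large rises (Tnf, Tnfsf14, Tnfrsf1b, Tnfrsf11a) and of the ligand that fell (Tnfsf10) are given 5′ to 3′ on the coding strand, with every match in capitals. From their 3′ ends, 5 bases of Tnfrsf11a and 49 of Tnfsf10 that lie inside an exon of the GENCODE annotation were left off. The start of a promoter entry can differ from the gene positions given below. The Tnfrsf11a stretch runs past the start of that gene (105780673), as do the windows of Tnfsf8, Fas, Tnfrsf4, Lta, Cd27 and Eda2r past theirs. The windows of Tnfrsf13b, Tnfrsf14, Tnfrsf17, Tnfrsf23 and Tnfrsf25 lie inside their genes. Tnfrsf9 and Tnfrsf19 each have an entry before the gene and another inside it. Tnfsf13b has an entry across its start and another inside. Some of the matches counted for these members thus lie within the gene.

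Tnf (chr17:35202008-35202257, minus strand): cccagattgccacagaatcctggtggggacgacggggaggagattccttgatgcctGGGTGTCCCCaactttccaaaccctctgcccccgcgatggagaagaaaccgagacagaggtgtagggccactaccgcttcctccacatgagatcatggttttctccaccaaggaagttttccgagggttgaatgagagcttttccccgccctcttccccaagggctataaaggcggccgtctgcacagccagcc

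Tnfsf14 (chr17:57194182-57194431, minus strand): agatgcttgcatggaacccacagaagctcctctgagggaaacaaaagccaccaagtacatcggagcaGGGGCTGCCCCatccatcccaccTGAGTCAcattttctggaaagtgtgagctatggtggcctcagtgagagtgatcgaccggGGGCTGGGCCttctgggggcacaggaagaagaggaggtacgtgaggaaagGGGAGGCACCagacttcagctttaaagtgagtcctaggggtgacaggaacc

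Tnfrsf1b (chr4:145246871-145247120, minus strand): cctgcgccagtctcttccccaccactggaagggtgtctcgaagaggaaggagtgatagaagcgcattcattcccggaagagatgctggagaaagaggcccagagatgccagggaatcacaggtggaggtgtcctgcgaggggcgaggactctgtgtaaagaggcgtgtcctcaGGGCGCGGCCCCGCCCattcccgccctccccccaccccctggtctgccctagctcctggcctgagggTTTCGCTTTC

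Tnfrsf11a (chr1:105780473-105780717, plus strand): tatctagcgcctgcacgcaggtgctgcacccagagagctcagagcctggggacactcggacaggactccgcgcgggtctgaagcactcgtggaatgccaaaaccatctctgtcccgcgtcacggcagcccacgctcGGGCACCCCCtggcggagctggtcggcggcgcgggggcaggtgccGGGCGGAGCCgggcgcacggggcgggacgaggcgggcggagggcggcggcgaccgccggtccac

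Tnfsf10 (chr3:27316827-27317027, plus strand): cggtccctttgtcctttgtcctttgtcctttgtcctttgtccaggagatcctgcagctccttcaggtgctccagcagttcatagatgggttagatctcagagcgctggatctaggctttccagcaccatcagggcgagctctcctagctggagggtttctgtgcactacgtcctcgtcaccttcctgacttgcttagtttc

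In the Tnf sequence the capitals mark a single stretch that fits the kappaB-type letters on both strands. In Tnfsf14 the second capital run is the AP-1-type match, TGAGTCA, and the others are kappaB-type. In Tnfrsf1b the first run holds overlapping kappaB-type matches and the last, TTTCGCTTTC, is the interferon-type match next to the start. Both runs in Tnfrsf11a are kappaB-type, and none of the 3 motifs was found in the window of Tnfsf10.

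Tnf, which encodes the founding cytokine of the family and lies at chr17:35199367-35202007 (GRCm38.p6, as are all gene positions here), had 144, 151 and 150.2 CPM in sham 1, 2 and 3 and 781, 904 and 834 CPM in MI 1, 2 and 3. Every MI library stood far above every sham library, a 5.66-fold rise (log2 fold change 2.50 ± 0.08, SE, adjusted p = 1.66e-10). Ltb encodes lymphotoxin beta, the membrane anchor of the lymphotoxin heterotrimer, and rose 10.9-fold from 0.349 ± 0.304 to 3.88 ± 1.24 CPM (log2 fold change 3.44 ± 0.62, SE, adjusted p = 3.13e-04). Lta, its partner subunit, had 2 counts over the sham libraries and 33 over the MI libraries and was too low to test. The 3 genes lie side by side on chromosome 17, with 3061 bases between Ltb and Tnf and 1157 between Tnf and Lta.

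Tnfsf14 (chr17:57189474-57194181) encodes LIGHT, a ligand of the lymphotoxin beta receptor and of HVEM, and had 1.98, 2.05 and 2.76 CPM in sham 1, 2 and 3 and 135, 164 and 161 CPM in MI 1, 2 and 3. It showed the largest rise among members with counts in every library, 67.8-fold (log2 fold change 6.08 ± 0.17, SE, adjusted p = 5.48e-11). Tnfsf9 (chr17:57105287-57107758) encodes 4-1BB ligand, a costimulator of T cells, and had 40.3, 47.3 and 37.6 CPM in sham 1, 2 and 3 and 142, 174 and 166 CPM in MI 1, 2 and 3, a 3.85-fold rise (log2 fold change 1.94 ± 0.12, SE, adjusted p = 2.30e-08). The groups did not overlap for either gene, and the sham level of Tnfsf9 was well above that of Tnfsf14. Tnfsf4 (OX40 ligand) had no count in any sham library and 9.12, 7.52 and 6.59 CPM in MI 1, 2 and 3, at least 29.8-fold higher when set against 3 counts over the sham group (0.260 CPM); this and the next bounds cover counting error only. Tnfsf15 (TL1A) and Tnfsf8 (CD30 ligand), neighbours on chromosome 4, also had 0 counts in sham and reached 2.58 ± 0.378 and 1.42 ± 0.205 CPM in MI, at least 9.93-fold and at least 5.48-fold higher. Each of these costimulatory ligands was detectable in every MI library and in no sham library at the sham depth. All 3 passed the test (adjusted p = 2.65e-06, 7.50e-05 and 4.92e-04, in that order), but they entered it through MI, the group where they are high. Tnfsf15 and Tnfsf8 were not tested with MI thinned to the sham depth or without any 1 MI library. Tnfsf15 overlaps the non-coding gene Gm42294 and Tnfsf9 overlaps Gm11110; without a stated strand setting their reads cannot be told apart.

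Tnfsf10 (chr3:27317077-27339665) encodes TRAIL, a ligand that can start apoptosis through death receptors, and was the only tested ligand that was lower in MI. It had 112, 114 and 110.2 CPM in sham 1, 2 and 3 and 24.9, 18.6 and 21.4 CPM in MI 1, 2 and 3, a 5.18-fold fall (log2 fold change -2.37 ± 0.12, SE, adjusted p = 3.59e-09). The 3 sham values lay within a few CPM of each other and far above all MI values. The median log2 fold change was -2.08 for the pan-endothelial markers and -2.52 for the lymphatic endothelial markers. Mural cell (-1.47) and cardiomyocyte (-4.36) markers fell as well. Per 100 units of Pecam1, Tnfsf10 was still lower in every MI library, from 6.99 ± 0.165 to 5.62 ± 0.909. Whether the fall of Tnfsf10 is linked to that of any of these markers was not tested.

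Tnfsf13 encodes APRIL and Tnfsf13b encodes BAFF, the ligands that keep B cells and plasma cells alive, and Tnfsf12 encodes TWEAK. Tnfsf13 (chr11:69682577-69685554) had 8.66, 14.9 and 13.5 CPM in sham 1, 2 and 3 and 25.3, 29.4 and 29.8 CPM in MI 1, 2 and 3, a 2.29-fold rise (log2 fold change 1.19 ± 0.17, SE, adjusted p = 6.06e-05). Tnfsf12 rose 1.31-fold, from 57.8 ± 1.31 to 76.0 ± 10.3 CPM (log2 fold change 0.39 ± 0.11, SE, adjusted p = 0.00813); scaled to total counts its log2 fold change was 0.042 (adjusted p = 0.742). Tnfsf13b was low, with 1.48, 2.83 and 2.76 CPM in sham 1, 2 and 3 and 1.54, 1.54 and 1.66 CPM in MI 1, 2 and 3, overlapping groups and an adjusted p of 0.135; scaled to total counts it passed as lower (log2 fold change -0.91, adjusted p = 0.0247). Tnfsf12 and Tnfsf13 are neighbours on chromosome 11, 685 bases apart, and both are spanned by the read-through gene Tnfsfm13, which fell from 47.0 ± 5.75 to 31.7 ± 5.05 CPM. The non-coding gene Tnfsf13os also overlaps Tnfsf12 over 4902 bases and Tnfsf13 over 2978 bases. How the authors' counting divided reads among these genes is not known, so both rises are uncertain. The summed level of Tnfsf12, Tnfsf13 and Tnfsfm13, without Tnfsf13os, went from 117 ± 2.74 to 136 ± 17.3 CPM, with overlapping groups.

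**Figure D2:**
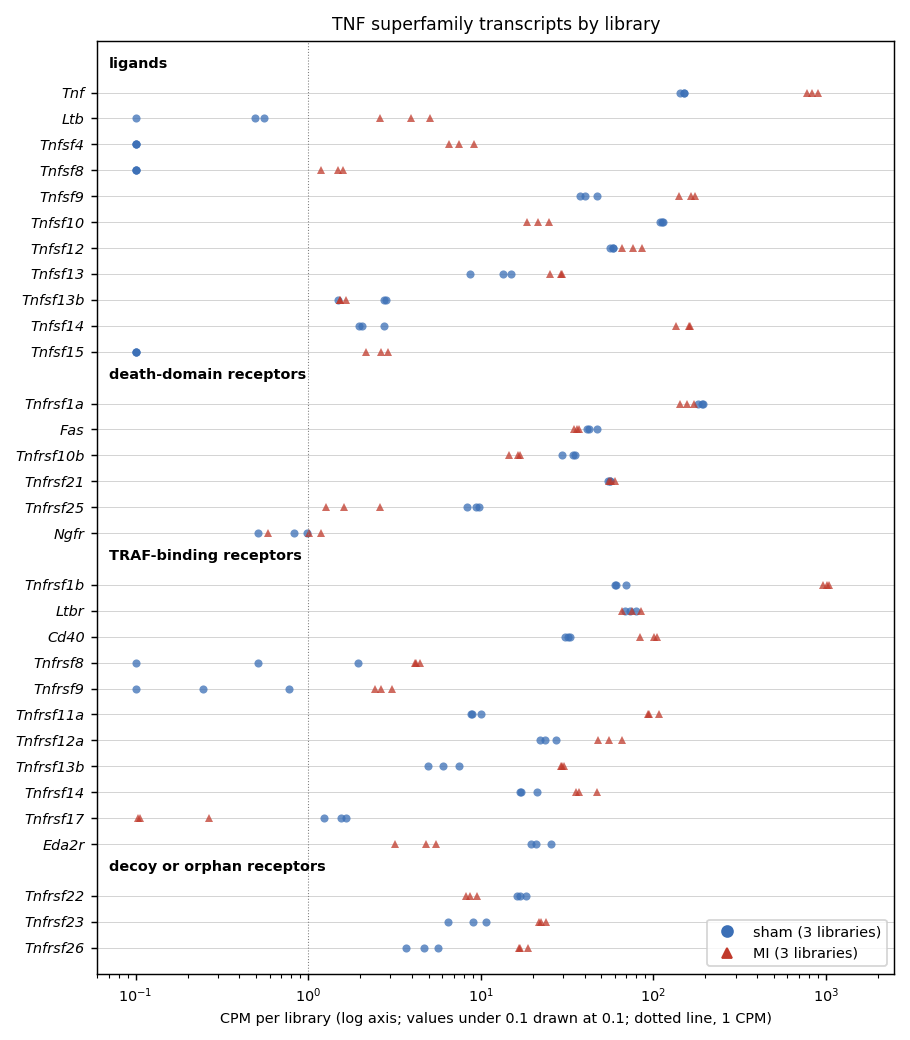
CPM of each of the 31 tested members in each library on a log axis, circles for sham and triangles for MI; values under 0.1, zeros included, are drawn at 0.1 and the dotted line is 1 CPM. The groups are apart for 27 members and overlap for Tnfsf13b, Tnfrsf21, Ngfr and Ltbr.

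Of the death-domain receptors, Tnfrsf1a, Fas and Tnfrsf21 moved by less than 2-fold. Tnfrsf1a (chr6:125349723-125362483) encodes TNFR1, the broadly expressed receptor for TNF, and had 195, 181 and 191 CPM in sham 1, 2 and 3 and 144, 171 and 157 CPM in MI 1, 2 and 3. Its fall was 1.20-fold (log2 fold change -0.26 ± 0.09, SE, adjusted p = 0.0172); it did not pass with DESeq2 (adjusted p = 0.0578), without the filter on low counts (0.0649), without sham 1 (0.0786), without sham 3 (0.0642) or without MI 3 (0.0576). Fas (chr19:34290647-34327775), the receptor of Fas ligand, had 47.3, 41.6 and 42.5 CPM in sham 1, 2 and 3 and 37.2, 36.0 and 34.8 CPM in MI 1, 2 and 3, a 1.22-fold fall (log2 fold change -0.28 ± 0.10, SE, adjusted p = 0.0255). The same settings ended this call too, with adjusted p of 0.10 with DESeq2, 0.0826 without the filter, 0.125 without sham 1, 0.0519 without sham 3 and 0.102 without MI 3. Tnfrsf21 (DR6) had 54.4, 56.5 and 56.1 CPM in sham 1, 2 and 3 and 56.7, 59.9 and 55.5 CPM in MI 1, 2 and 3; the groups overlapped and the test did not pass (log2 fold change 0.04 ± 0.09, SE, adjusted p = 0.682). Scaled to total counts, Tnfrsf21 passed as lower (log2 fold change -0.31, adjusted p = 0.00936).

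Larger falls were found in Tnfrsf10b and Tnfrsf25. Tnfrsf10b (chr14:69767472-69784411), the mouse receptor for TRAIL, had 34.2, 29.8 and 35.3 CPM in sham 1, 2 and 3 and 17.0, 16.5 and 14.5 CPM in MI 1, 2 and 3, a 2.07-fold fall (log2 fold change -1.05 ± 0.12, SE, adjusted p = 9.67e-06). Tnfrsf25 (chr4:152115528-152120119) encodes DR3, the receptor of TL1A, and had 9.40, 9.76 and 8.28 CPM in sham 1, 2 and 3 and 1.27, 2.59 and 1.61 CPM in MI 1, 2 and 3, a 5.0-fold fall (log2 fold change -2.32 ± 0.27, SE, adjusted p = 9.32e-06). The MI values of both lay below all sham values. Ngfr, the low-affinity neurotrophin receptor, was under 1 CPM in both group means (0.777 ± 0.242 to 0.928 ± 0.313 CPM, adjusted p = 0.678).

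Tnfrsf1b (chr4:145212368-145246870) encodes TNFR2, the TNF receptor without a death domain, which is prominent on immune and endothelial cells. It had 69.3, 61.1 and 59.9 CPM in sham 1, 2 and 3 and 958, 1043 and 1018 CPM in MI 1, 2 and 3. The MI libraries stood an order of magnitude above the sham libraries, a 15.8-fold rise (log2 fold change 3.99 ± 0.09, SE, adjusted p = 1.60e-11), and no other receptor rose by as much. Tnfrsf8, which encodes CD30 and lies 20261 bases away on chromosome 4, rose 5.44-fold at a much lower level, from 0.816 ± 1.00 to 4.30 ± 0.148 CPM (adjusted p = 0.00101). Sham 3 held 7 of its 9 sham counts, and the rise was 16.5-fold without sham 3 and 3.58-fold without sham 1. Tnfrsf11a (chr1:105780673-105849444) encodes RANK, a receptor known from osteoclasts and dendritic cells, and had 8.91, 10.0 and 8.84 CPM in sham 1, 2 and 3 and 108, 95.0 and 93.3 CPM in MI 1, 2 and 3. Its rise was 10.6-fold (log2 fold change 3.41 ± 0.13, SE, adjusted p = 3.48e-10), with no overlap between groups.

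Cd40 (chr2:165055614-165071654), a costimulatory receptor of antigen-presenting cells that endothelium can also carry, had 33.2, 32.1 and 30.7 CPM in sham 1, 2 and 3 and 84.4, 106 and 102 CPM in MI 1, 2 and 3, a 3.04-fold rise (log2 fold change 1.60 ± 0.12, SE, adjusted p = 1.15e-07). Tnfrsf12a (chr17:23675445-23677449) encodes Fn14, the TWEAK receptor, which is known to be induced by injury, and had 22, 27.2 and 23.5 CPM in sham 1, 2 and 3 and 48.0, 65.8 and 55.5 CPM in MI 1, 2 and 3, a 2.33-fold rise (log2 fold change 1.22 ± 0.14, SE, adjusted p = 9.70e-06). Tnfrsf14 (chr4:154918487-154928620) encodes HVEM, a receptor of LIGHT, and had 17.1, 17.0 and 21.3 CPM in sham 1, 2 and 3 and 47.4, 35.7 and 37.4 CPM in MI 1, 2 and 3, a 2.18-fold rise (log2 fold change 1.13 ± 0.15, SE, adjusted p = 3.13e-05). In each of these receptors the lowest MI library exceeded the highest sham library. Tnfrsf9 (4-1BB) rose 7.65-fold from 0.339 ± 0.393 to 2.72 ± 0.325 CPM (adjusted p = 4.79e-04); it had 4 counts over sham, 3 of them in sham 2, and the rise was 19.6-fold without that library. Tnfrsf9 did not pass the filter with MI thinned to the sham depth. Ltbr encodes the lymphotoxin beta receptor, which is needed for lymph node formation; it went from 74.2 ± 5.37 to 75.4 ± 9.64 CPM, with overlapping groups (log2 fold change 0.02 ± 0.11, SE, adjusted p = 0.853), but passed as lower when scaled to total counts (log2 fold change -0.33, adjusted p = 0.0183).

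Of the receptors of BAFF and APRIL, Tnfrsf13b rose, Tnfrsf17 fell on few counts and Tnfrsf13c was not tested. Tnfrsf13b (chr11:61126283-61153170) encodes TACI and had 4.95, 7.45 and 6.08 CPM in sham 1, 2 and 3 and 29.7, 30.3 and 29.4 CPM in MI 1, 2 and 3, a 4.84-fold rise (log2 fold change 2.28 ± 0.16, SE, adjusted p = 7.36e-08). Tnfrsf17 encodes BCMA, a receptor of plasma cells, and fell 8.78-fold from 1.48 ± 0.217 to 0.158 ± 0.0923 CPM (adjusted p = 2.37e-04). It had 17 counts over sham and 9 over MI and entered the test through sham, the group where it is high. Tnfrsf17 was not tested with MI thinned to the sham depth, with the stricter filter or without any 1 MI library. Tnfrsf13c, the BAFF receptor of B cells, had 4 counts over sham and 7 over MI and was not tested. Beside these changes, summed B cell markers overlapped between the groups, as given above, while of 4 tested B cell markers 2 were lower and 1 higher in MI (median log2 fold change -1.45); their part was not tested. Eda2r (chrX:97333837-97377234) encodes the receptor of ectodysplasin A2 and had 19.6, 25.7 and 21.0 CPM in sham 1, 2 and 3 and 5.52, 3.18 and 4.83 CPM in MI 1, 2 and 3, a 4.89-fold fall (log2 fold change -2.29 ± 0.21, SE, adjusted p = 9.06e-07). Its MI values were all below its sham values, as they were for Tnfrsf17. Tnfrsf13b overlaps the protein-coding gene Usp22 over 1390 bases and Eda2r the pseudogene Gm18111 over 674, with the same doubt about reads as for Tnfsf9; so do Tnfrsf12a with Hcfc1r1 over 80 bases and Tnfrsf23, below, with the non-coding E230032D23Rik over 2368.

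Tnfrsf22, Tnfrsf23 and Tnfrsf26 are closely related rodent genes in a row on chromosome 7, with 6962 and 16131 bases between them; the first pair named encodes decoy receptors for TRAIL. Tnfrsf22 (chr7:143634808-143649675) had 16.3, 17.0 and 18.2 CPM in sham 1, 2 and 3 and 8.27, 8.68 and 9.50 CPM in MI 1, 2 and 3, a 1.94-fold fall (log2 fold change -0.96 ± 0.14, SE, adjusted p = 6.12e-05). Tnfrsf23 (chr7:143665807-143686436) had 6.43, 8.99 and 10.8 CPM in sham 1, 2 and 3 and 22.4, 23.9 and 21.9 CPM in MI 1, 2 and 3, a 2.62-fold rise (log2 fold change 1.39 ± 0.17, SE, adjusted p = 1.27e-05). Tnfrsf26 (chr7:143607685-143627845), an orphan receptor, had 3.71, 5.65 and 4.69 CPM in sham 1, 2 and 3 and 18.9, 17.0 and 16.7 CPM in MI 1, 2 and 3, a 3.74-fold rise (log2 fold change 1.90 ± 0.18, SE, adjusted p = 1.48e-06). Thus the middle gene of the row was lower in MI and its neighbours higher, with no overlap between groups in any of them. Because the sequences are alike, how reads were divided among them is uncertain.

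The 11 members with too few counts to test were Lta, Tnfsf11, Tnfsf18, Fasl, Cd70, Tnfrsf4, Cd27, Tnfrsf13c, Tnfrsf18, Tnfrsf19 and Tnfrsf11b. Their group means ran from 0 to 0.784 CPM, with at most 5 counts in a sham library and 16 in an MI library. Several are typical of lymphocytes: Fas ligand (Fasl) had 1 count over sham and 15 over MI, OX40 (Tnfrsf4) 1 and 34, GITR (Tnfrsf18) 4 and 33, and CD27 (Cd27) 8 and 13. Tnfsf11 (RANK ligand) had 0 counts over sham and 12 over MI, and Tnfrsf11b (osteoprotegerin, the soluble decoy of RANK ligand) had 9 and 27. Cd70 had 0 counts over sham and 1 over MI. Fitted without the filter on low counts, Tnfrsf4 passed as higher (log2 fold change 2.69 ± 1.09, SE, adjusted p = 0.0492), and for the other 10 no change was detectable at this depth.

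Levels of different genes were compared in TPM, the authors' transcript abundances, which account for transcript length. The 16 ligands summed to 372 ± 15.7 TPM in sham and 1389 ± 29.7 TPM in MI, and the 26 receptors to 523 ± 11.7 and 985 ± 6.75 TPM (SD, n = 3). Tnf made up the largest share of ligand TPM in both groups, 46.9 ± 1.12% in sham and 63.6 ± 1.00% in MI, and Tnfsf9 ranked next in both (18.0 ± 1.65% and 16.6 ± 0.554%). Tnfsf14 moved from rank 7, with 0.632 ± 0.127% of ligand TPM, to rank 3 with 10.2 ± 0.435%. Tnfsf12 went from 17.8 ± 0.760% to 5.58 ± 0.300%, and Tnfsf10 dropped from rank 4 (11.6 ± 0.371%) to rank 7 (0.543 ± 0.125%). In sham the shares of Tnfsf9 and Tnfsf12 did not differ beyond their spread.

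Among receptors Tnfrsf1a ranked first in sham, with 32.4 ± 0.469% of receptor TPM, followed by Ltbr (13.0 ± 0.873%) and Fas (11.9 ± 1.22%), which overlapped. In MI Tnfrsf1b ranked first with 41.1 ± 1.34%, up from 5.29 ± 0.613% and rank 7 in sham. Tnfrsf1a was next in MI at 12.8 ± 0.422%, followed by Tnfrsf12a (10.9 ± 1.16%) and Cd40 (10.2 ± 0.679%), which overlapped. Tnfrsf11a rose from rank 16 (0.665 ± 0.0776%) to rank 7 (3.29 ± 0.425%), and Tnfrsf10b went from 3.83 ± 0.279% to 0.885 ± 0.0981%. Shares within a library sum to a fixed total, so a gain of one member lowers the shares of the others.

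**Figure D3:**
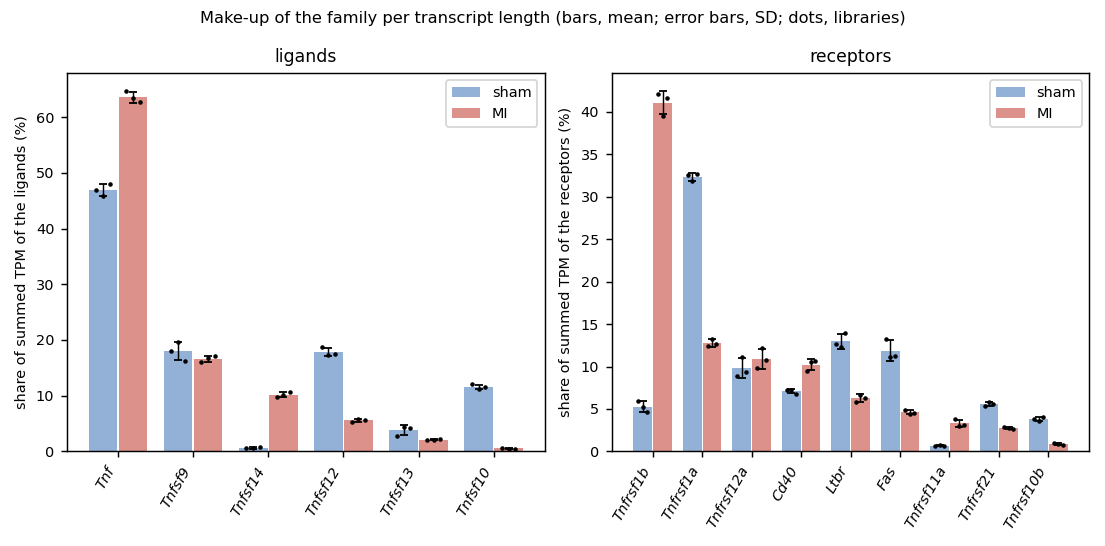
Share of the summed TPM of the 16 ligands (left) and of the 26 receptors (right) taken by the most abundant members, in percent; bars are means of 3 libraries, error bars SD and dots libraries. Tnf leads the ligands in both groups, while the leading receptor is Tnfrsf1a in sham and Tnfrsf1b in MI.

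Set beside their receptors, ligands of several pairs stood at unequal levels in MI. Tnf was at 883 ± 15.1 TPM in MI beside 405 ± 15 TPM of Tnfrsf1b and 126 ± 3.58 TPM of Tnfrsf1a. Tnfsf14 was at 142 ± 7.62 TPM, with its receptors Ltbr at 61.6 ± 4.11 and Tnfrsf14 at 14.7 ± 3.25 TPM. Tnfsf9 was at 231 ± 11.4 TPM and its receptor Tnfrsf9 at 2.27 ± 0.384 TPM, and Tnfsf4 was at 8.43 ± 1.85 TPM beside 0.923 ± 0.327 TPM of Tnfrsf4. In the pairs of Tnfsf9 and Tnfsf4 the ligand was the more abundant transcript. In others the receptor was: Tnfsf8 stood at 0.717 ± 0.172 TPM beside 2.20 ± 0.157 TPM of Tnfrsf8, Tnfsf15 at 0.767 ± 0.155 beside 1.45 ± 0.564 TPM of Tnfrsf25, and Tnfsf12 at 77.6 ± 5.83 beside 107 ± 10.9 TPM of Tnfrsf12a. The Tnfsf15 pair is low and was close in MI 1, at 0.92 TPM of Tnfsf15 and 0.95 TPM of Tnfrsf25. Its ligand also carries the doubt about reads shared with Gm42294. In the RANK branch the receptor also exceeded its ligand, with Tnfrsf11a at 32.5 ± 4.42 TPM, Tnfsf11 at 0.163 ± 0.0379 TPM and the decoy Tnfrsf11b at 0.287 ± 0.0503 TPM.

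Ratios within a library do not depend on how libraries are scaled, apart from the 0.5 CPM added to each level, and 4 were compared. CPM take no account of transcript length, so the sign of a ratio does not show which transcript is the more abundant. Only the change of a ratio between groups is compared. The log2 ratio of Tnfrsf1b to Tnfrsf1a was -1.48, -1.56 and -1.66 in sham 1, 2 and 3 and 2.73, 2.60 and 2.70 in MI 1, 2 and 3. The difference between group means was 4.25. In TPM the balance of the TNF receptors lay on the side of Tnfrsf1a in every sham library (169 ± 5.86 beside 27.7 ± 3.67 TPM of Tnfrsf1b). In every MI library it lay on the side of Tnfrsf1b (405 ± 15 beside 126 ± 3.58 TPM of Tnfrsf1a). The log2 ratio of Tnfrsf10b to Tnfsf10, receptor to ligand of the TRAIL pair, was -1.75 ± 0.15 in sham and -0.42 ± 0.22 in MI: both fell, the ligand by more. In TPM the levels of this pair in MI were 8.72 ± 1.03 for Tnfrsf10b and 7.52 ± 1.57 for Tnfsf10. For Tnfrsf12a to Tnfsf12, the TWEAK pair, the log2 ratio was -1.24 ± 0.15 in sham and -0.43 ± 0.03 in MI. In TPM Tnfrsf12a exceeded Tnfsf12 in MI, as given above. For Tnfsf13b to Tnfsf13, BAFF to APRIL, it was -2.17 ± 0.06 in sham and -3.78 ± 0.11 in MI; the last pair of ratios carries the doubt about Tnfsf12 and Tnfsf13 described above. None of the 4 ratios overlapped between groups, and each gave p = 0.1 in an exact two-sided permutation test (0.1 after Benjamini-Hochberg adjustment over the 4), the smallest value that 3 against 3 libraries allow.

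**Figure D4:**
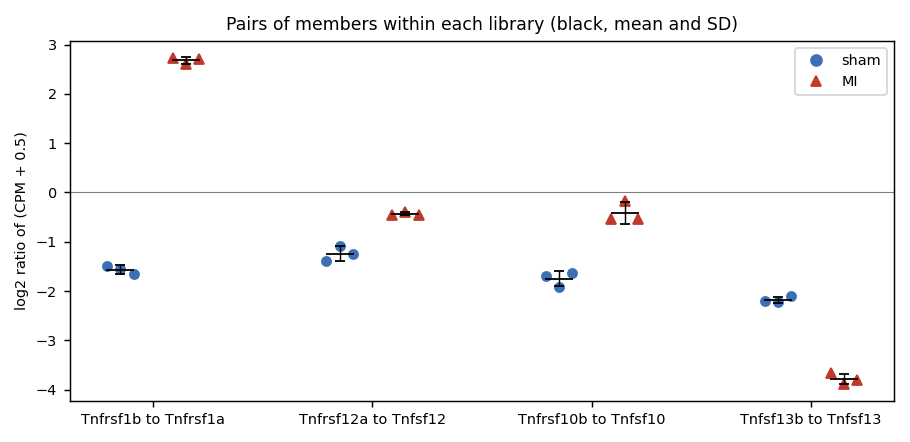
Log2 ratio of (CPM + 0.5) for 4 pairs of members in each library, circles for sham and triangles for MI, with the group mean and SD in black. The Tnfrsf1b to Tnfrsf1a ratio is below 0 in the 3 sham libraries and above 0 in the 3 MI libraries; the Tnfsf13b to Tnfsf13 ratio is lower in MI and the other 3 higher.

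Leukocyte and endothelial marker levels moved with the groups, and the members were therefore also set against a marker of each, a description chosen after their values were seen. Ptprc, which encodes the leukocyte antigen CD45, rose 6.45-fold from 106 ± 2.81 to 684 ± 111 CPM, and Pecam1, which encodes the endothelial adhesion molecule CD31, fell 4.15-fold from 1604 ± 19.6 to 386 ± 5.90 CPM. Per 100 units of Ptprc, Tnf stood at 140.2 ± 7.13 in sham; its MI value, 126 ± 27.9, overlapped it. Tnfsf9 went from 39.4 ± 4.61 to 24.1 ± 6.05 on this scale and so lay lower in MI. Tnfsf14 went from 2.14 ± 0.462 to 23.0 ± 5.69, Tnfrsf1b from 59.8 ± 3.32 to 150.2 ± 29.1 and Tnfrsf11a from 8.73 ± 0.660 to 14.5 ± 1.35. Every MI library exceeded every sham library on this scale for 6 of the 31 tested members (19.4%): Tnfsf4, Tnfsf8, Tnfsf14, Tnfsf15, Tnfrsf1b and Tnfrsf11a. Tnfsf4, Tnfsf8 and Tnfsf15 had 0 counts in sham and would lie above on any scale; of the 28 tested members with a sham count 3 were above (10.7%), beside 3.27% of the 13321 tested genes with one. For 20 members (64.5%) every MI library was lower, and 5 overlapped (Tnf, Ltb, Tnfrsf8, Tnfrsf9 and Tnfrsf13b); over all genes 3.62% were above and 90.0% below. Per 100 units of Pecam1, 27 members were above in MI, 2 below (Tnfsf10 and Tnfrsf17) and 2 overlapped, where 87.8% of all genes were above and 3.97% below.

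Genes that act with these receptors were taken from 4 lists, 44 genes in the table, of which 42 were tested. Of these 28 were higher in MI, 8 lower and 6 did not pass, with a median log2 fold change of 0.53; scaled to total counts the split was 17 higher and 11 lower. The first split is 66.7% higher and 19.0% lower, beside 36.4% and 36.9% of all genes tested. The lists were written with earlier results of these data known, so their shares are not independent of those results. Per 100 units of Ptprc, 39 of the 42 were below in MI, 1 above and 2 overlapped, where 90.0% of all genes were below. Among 24 adaptors and proximal kinases 17 were higher (70.8%), 4 lower and 3 did not pass. Traf1, an adaptor of TNFR2 and CD40 that is itself a known NF-kappaB target, rose 18.1-fold from 6.96 ± 1.81 to 126 ± 8.85 CPM (log2 fold change 4.18 ± 0.16, SE, adjusted p = 3.55e-10). Traf3, which restrains the non-canonical NF-kappaB pathway, rose 5.35-fold from 15.5 ± 2.41 to 82.8 ± 4.63 CPM. Birc3 (cIAP2), a ubiquitin ligase recruited by TRAF2, rose 2.59-fold, and Spata2, which links the deubiquitinase CYLD to the receptor complex, rose 2.44-fold. All 4 had adjusted p of at most 2.74e-07.

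Of 8 genes of the death machinery 6 were higher, 1 was lower and 1 did not pass (75% higher, beside 36.4% of all genes). Cflar, which encodes the caspase-8 inhibitor cFLIP, rose 4.95-fold from 197 ± 5.41 to 976 ± 227 CPM (log2 fold change 2.31 ± 0.14, SE, adjusted p = 2.25e-08). Ripk3, the kinase of necroptosis, rose 3.07-fold, and Bid, which carries the caspase-8 signal to mitochondria, rose 3.88-fold. The rises thus took in an inhibitor of the pathway and genes that carry it out. Of 7 genes that shed or cleave ligands and receptors 4 were higher, 1 lower and 2 did not pass (57.1% higher, beside the same 36.4%). Furin, a convertase that processes APRIL, TWEAK and pro-ADAM17, rose 7.37-fold from 71.7 ± 0.455 to 528 ± 27.7 CPM. Adam17, which encodes the protease that releases soluble TNF, rose 2.16-fold from 135 ± 5.69 to 290.5 ± 31.5 CPM. Rhbdf2 and Rhbdf1 encode the iRhom partners of ADAM17: Rhbdf2 rose 2.76-fold while Rhbdf1 fell 2.25-fold, with adjusted p of 6.22e-08 and 6.32e-06. Of the relatives outside the naming rule, Relt, an orphan receptor, rose 2.96-fold, Eda, which encodes ectodysplasin, fell 2.94-fold, and Rell1 fell 1.20-fold (adjusted p = 0.0464), a call lost without each of 5 libraries, every one but MI 1 (adjusted p from 0.0535 to 0.201), with DESeq2 (0.112), RLE scaling (0.0831), limma-voom (0.0510), no filter (0.129), a minimum fold of 2 and the replicate block (0.0631).

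**Figure D5:**
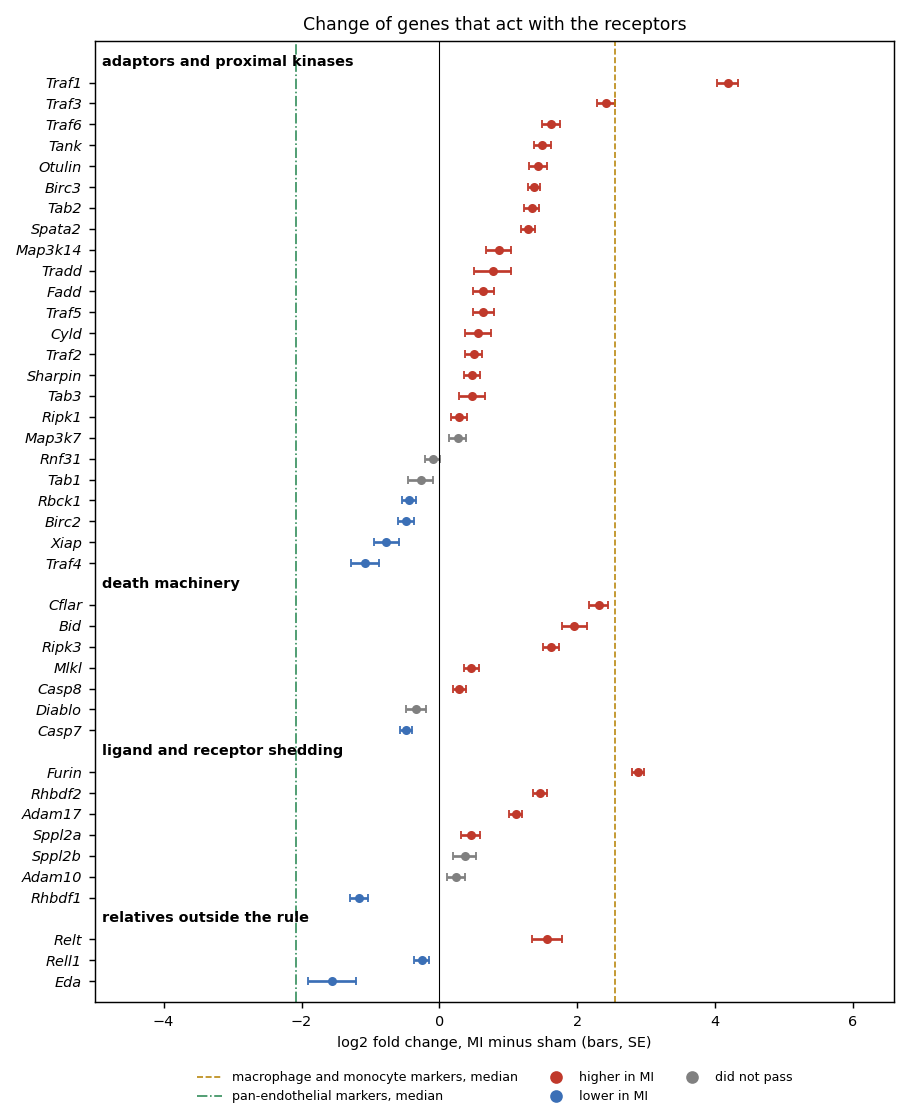
Log2 fold change, MI minus sham, of tested genes that act with TNF-family receptors (1 is not drawn), with bars for the standard error, in 4 lists; vertical lines give the median change of the macrophage and monocyte markers and of the pan-endothelial markers. Traf1 and Furin lie to the right of the macrophage line, and no gene lies to the left of the endothelial line.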

How the data were processed

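RNA of 6 libraries, 3 sham and 3 MI, was grouped and numbered by the sample titles. The deposited table gives, per the file headers and values, estimated counts per gene and library that the authors did not scale, and TPM that the authors computed per gene length and library. Reads were mapped to GRCm38 per the labels (GRCm38.p6 per the submitters' processing notes, which list Agilent Feature Extraction 9.1 as well, without saying for what); aligner, counter, annotation release and strand setting are not given in the sources used here. Group averages, FPKM and a scaled read count in the table, 12 per-sample columns among them, were not used.

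The estimated counts, rounded, went into edgeR 4.0.16 (R 4.3.3), with filterByExpr (13370 of 17714 genes kept), TMM scaling and the quasi-likelihood test of group. A gene passed when its two-sided p, adjusted by Benjamini-Hochberg over all genes tested, was under 0.05, and the same adjustment stands behind every adjusted p unless another tool is named. The common biological coefficient of variation was 0.103. CPM are means ± SD over 3 libraries; fold changes are MI over sham, and their SE comes from the quasi-likelihood F. Folds against 0 counts use 3 counts over the sham group. Overlap with other genes was read from RefSeq for GRCm38.p6. Chi-square per gene between libraries was 1.54 to 1.77 within sham and 4.14 to 35.3 within MI, where MI 1 stood apart, so no library was a copy of another. The procedure was also run on simulated counts in which a small part of the genes was changed, evenly up and down. That run could not test the scaling for these data, where 73.3% of all genes tested passed.

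Per-library values were printed for members with a group mean of at least 5 CPM and a fitted change of at least 2-fold, or in a role with fewer than 3 such members; Tnfsf13b was added after its values were seen, and other members are given by group means or counts. From each pathway list up to 4 genes with the smallest p were named; 1 gene that the rule would name is not reported here. The members, the lists and these rules were chosen with earlier results of these data known. Tnfrsf26 was given its role, and Tnfsfm13 and the levels per 100 units of Ptprc or Pecam1 were added, after values were seen. Alternatives were DESeq2 1.42.0, limma 3.58.1 (voom, and with trend on log2(TPM + 1)), other scalings and filters, a minimum fold, the replicate number as a block, thinning and each library left out.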

Additional observations from a re-analysis of the deposited data

How the results depend on the processing

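Most calls of the members kept their direction and side of the threshold. With a minimum fold change of 2 the members lower in MI went from 8 to 4, the pathway genes higher from 28 to 14 and those lower from 8 to 0; by construction this test asks for larger changes. Scaled to total counts, 17 pathway genes were higher. Leaving out 1 library at a time, 15 to 19 members were higher and 5 to 8 lower; the 5 came without MI 3, where Fas and Tnfrsf1a did not pass and Tnfrsf17 was not tested. Without any 1 MI library Tnfsf8, Tnfsf15, Ngfr, Tnfrsf9 and Tnfrsf17 did not pass the filter on low counts, nor did Ltb without MI 2 or MI 3. Pathway genes then ran from 24 to 30 higher and 7 to 9 lower. Between 25 and 26 members were tested without an MI library, 24 with MI thinned to the sham depth (15 higher, 7 lower), 42 without the filter (20 higher, 6 lower) and 28 on log2(TPM + 1).

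Small changes turned sign. Tnfrsf21 gave -0.012 when thinned, -0.11 on log2(TPM + 1), -0.31 scaled to total counts and -0.00083 with the stricter filter. Ltbr gave -0.092, -0.14, -0.33 and -0.020 in that order, and from -0.071 (without MI 2) to 0.14 (without MI 1) with a library left out, being also negative without sham 2 (-0.019). Scaled to total counts, Ngfr gave -0.093, Ripk1 -0.067, Map3k7 -0.086, Casp8 -0.059 and Adam10 -0.11. The cause was not tested beyond the shift of the median given above. Members at 1 CPM in either group numbered 30 under each scaling and in TPM, and 30 to 31 without a library. The 4 ratios kept their direction with 2 other pseudocounts, in TPM and with each library left out, the alternatives run on them.

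Samples with the same number did not deviate together (r of -0.048, -0.021 and 0.016). With 3 libraries in each group and sham libraries that differ by little more than counting error, these r cannot exclude a pairing. With the number as a replicate block 19 members were higher and 8 lower, and 28 pathway genes higher and 7 lower, Rell1 no longer passing. The sham depth limits the low ligands: 3 counts over the group are 0.260 CPM.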

Other observations

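Several members sit next to each other in the genome (GRCm38.p6), and neighbours did not always move alike. On chromosome 17, Tnfsf9, Cd70 and Tnfsf14 follow each other with 38238 and 39696 bases between them; both outer genes were higher in MI, while Cd70, which encodes the ligand of CD27, had 1 count in all 6 libraries together. On chromosome 1, Tnfsf4, which had 0 counts in sham and was higher in MI, lies 76450 bases from Tnfsf18, which encodes GITR ligand and had 7 counts over sham and 22 over MI. On chromosome 4, Tnfsf15 and Tnfsf8, 86142 bases apart, were both higher from 0 counts in sham. On chromosome 6, Ltbr, which did not pass, lies 35837 bases from Tnfrsf1a, whose small fall did not hold under every setting. No test was made of whether neighbours move together.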
